A study of Mus musculus with 6 samples.

Results

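The genes described here are 38 mouse genes of mitosis and cytokinesis, out of 29510 gene symbols in the deposited table. They were chosen from a list of gene names that covers mitotic entry, the spindle checkpoint, the chromosomal passenger complex, the kinetochore, spindle motors, the anaphase-promoting complex, cytokinesis, and the proliferation genes Top2a and Mki67. All 38 were found, and all 38 passed the filter on low values. RNA was sequenced from primary chondrocytes, the cells that make cartilage, grown in culture without induced differentiation. Every library carried floxed alleles of Nf2, the gene for the tumour suppressor merlin. The 3 control libraries (Nf2f/f, control 1 to 3) had no Cre, and the 3 conditional knockout libraries (Nf2f/f;Prx1-Cre, cKO 1 to 3) also carried Prx1-Cre, a recombinase expressed in limb bud mesenchyme and its descendants. Strain, age and the number of animals behind a library are not given in the labels, and the p-values therefore cover only the variation among these libraries, which may be partly technical. The comparison addresses how cultures that carry Prx1-Cre on the floxed Nf2 background differ from those that do not. Since the controls had no Cre, an effect of Cre itself cannot be told apart from one of Nf2 deletion.

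Cells enter mitosis when cyclin B binds and activates the kinase Cdk1. Kinetochores then attach chromosomes to the spindle, the checkpoint holds anaphase back until attachment is complete, and Cdc20 switches on the anaphase-promoting complex, a ubiquitin ligase that destroys cyclin B and securin. The central spindle and a contractile ring finally split the cell. Most of these genes are transcribed together late in the cell cycle, and their promoters are known for the cell cycle genes homology region (CHR, TTTGAA), which binds the MuvB core shared by the DREAM, B-Myb and FoxM1 complexes, and for CCAAT boxes, which bind NF-Y. Their summed level in a culture is used as a sign of cycling cells. In RNA from a whole culture, more cells in mitosis and more RNA per mitotic cell cannot be told apart.

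Promoter sequence was taken from RefSeq (GRCm38.p6, the assembly also called mm10), which held 34 promoters for 31 of the 38 genes, all but Aurkb, Ccna2, Cdc25c, Incenp, Kif20a, Spc24 and Tpx2. A window of 230 bases, from 200 before to 30 after the start site, was searched on both strands. TTTGAA was found in 24 of the 34 promoters (70.6%), against 13.8% of all 32851 promoters in the same window. CCAAT was found in 26 (76.5%), against 31.7%, and the CHR variant TTCGAA in 3 (8.82%), against 1.12%. TTCGAA is its own reverse complement, and matches of different motifs may overlap at their ends. The windows below are those of 4 of the 5 genes with the smallest adjusted p among those that rose, Kif20a being left out, and of the 2 genes with the lowest change. They show where the motif stands in genes that rose and in the 2 with the most negative log2 change, neither of which passed the test. Capitals mark TTTGAA and CCAAT or their reverse complements. Cdc20 lies at chr4:118437314-118437543 (minus strand), Birc5 at chr11:117849037-117849266 (plus strand), Racgap1 at chr15:99651627-99651856 (minus strand), Anln at chr9:22389177-22389406 (minus strand), Spc25 at chr2:69206184-69206413 (minus strand) and Cenpf at chr1:189688057-189688286 (minus strand).
Cdc20: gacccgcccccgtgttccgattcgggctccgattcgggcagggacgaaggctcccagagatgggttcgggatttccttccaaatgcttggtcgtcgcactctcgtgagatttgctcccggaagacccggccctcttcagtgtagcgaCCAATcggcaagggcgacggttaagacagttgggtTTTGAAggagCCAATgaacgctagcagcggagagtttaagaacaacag
Birc5: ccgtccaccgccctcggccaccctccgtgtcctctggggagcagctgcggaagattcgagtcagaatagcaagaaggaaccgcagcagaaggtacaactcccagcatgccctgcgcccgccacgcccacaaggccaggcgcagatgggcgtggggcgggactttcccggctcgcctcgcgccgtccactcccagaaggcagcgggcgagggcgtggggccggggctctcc
Racgap1: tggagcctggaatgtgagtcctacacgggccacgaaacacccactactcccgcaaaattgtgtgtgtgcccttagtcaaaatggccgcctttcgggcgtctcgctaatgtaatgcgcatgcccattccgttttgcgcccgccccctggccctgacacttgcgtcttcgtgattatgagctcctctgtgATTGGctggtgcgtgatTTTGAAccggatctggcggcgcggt
Anln: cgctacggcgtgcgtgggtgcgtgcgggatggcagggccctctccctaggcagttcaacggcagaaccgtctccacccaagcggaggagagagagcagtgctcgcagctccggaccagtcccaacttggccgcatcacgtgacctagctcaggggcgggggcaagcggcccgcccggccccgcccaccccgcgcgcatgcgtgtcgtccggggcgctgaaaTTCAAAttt
Spc25: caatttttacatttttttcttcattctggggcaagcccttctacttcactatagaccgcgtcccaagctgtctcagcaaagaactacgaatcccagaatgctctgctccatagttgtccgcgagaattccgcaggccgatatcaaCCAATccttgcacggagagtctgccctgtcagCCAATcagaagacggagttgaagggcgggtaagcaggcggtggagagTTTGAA
Cenpf: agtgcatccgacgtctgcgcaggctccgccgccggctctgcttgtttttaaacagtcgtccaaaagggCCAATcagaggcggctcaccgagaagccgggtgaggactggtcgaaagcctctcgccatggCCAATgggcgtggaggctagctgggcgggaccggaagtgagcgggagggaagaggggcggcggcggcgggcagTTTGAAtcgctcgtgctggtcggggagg
TTTGAA begins 18 bases before the start site in Cdc20, and at base 6 of the transcript in Racgap1, base 3 in Cenpf and base 25 in Spc25, counting the start site as base 1. In Anln its reverse complement begins at base 22. The Birc5 window holds none of the 3 motifs. TTTGAA was found among genes that rose and genes that did not: 6 of the 9 genes that rose and were matched to a promoter hold it, and so do 15 of the 22 that did not pass the test.

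Levels are given as FPKM, sequenced fragments scaled by transcript length and library size, which the authors computed per transcript and which were summed per gene. Values are listed by replicate number, control before cKO. Nf2 was at 16.7, 16.6 and 14.1 FPKM in the control libraries and stood at 17.5, 15.6 and 18.1 FPKM in the cKO libraries (limma over 14080 genes, adjusted p = 0.463). A sum over transcripts also takes reads from outside a deleted part, so it does not check the deletion. From 12441 to 12697 genes stood at 1 FPKM or more. Pairs of libraries of one genotype had a Pearson r of 0.987 to 0.989 and pairs of different genotype 0.972 to 0.981, computed on log2 values over genes, which do not count as replicates. Of 16 chondrocyte markers all were detected and 15 fell, their summed level going from 5598 to 6915 FPKM in control to 2484 to 3137 FPKM in cKO. Of 9 fibroblast markers 7 were tested and 3 fell, with sums of 1621 to 1719 FPKM in control against 995 to 1753 FPKM in cKO. Of the 6 adipocyte markers 2 rose, Pparg and Lpl, with sums of 48.1 to 53.6 and 54.9 to 91.5 FPKM, while the defining gene Adipoq was at 0 in 5 of 6 libraries. Of 9 macrophage and blood markers 3 were tested and did not pass. All 9 together summed to 6.68 to 18.3 and 7.22 to 10.3 FPKM with Itgam at 0 in 5 libraries, and sums of the 5 endothelial markers measured, all under the filter, were 0.249 to 0.354 and 0.383 to 0.663 FPKM. Among skeletal muscle markers Des and Acta1 rose, with sums of 4.44 to 5.93 and 8.81 to 11.0 FPKM, while Myod1 was at 0 in 4 libraries and Myf5 in 5. Xist, expressed from an inactive X chromosome, was at 0.525 FPKM in control 2, at 0.0288 FPKM in cKO 3 and at 41.6 to 53.9 FPKM in the other 4 libraries. The part of these differences in the mitotic genes was not tested, except in a fit with Xist as a covariate. In that fit 6 of the 38 genes and 6.61% of all tested genes rose. Library cKO 3 also differed from cKO 1 and 2 in step with transcript length, as detailed after the gene values.

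A part of the mitotic genes rose modestly in cKO chondrocytes. The 38 genes together held 1288, 1296 and 1352 FPKM in the control libraries against 1514, 1459 and 1545 FPKM in the cKO libraries, and the groups did not overlap. By limma on log2(FPKM + 0.5), adjusted over 14080 tested genes, 11 of the 38 genes rose (28.9%), 0 fell and 27 did not pass at 0.05. At an unadjusted limma p under 0.05 the counts were 18 higher and 0 lower. The share of all tested genes at that unadjusted threshold is not given here, so this count has no background. At the adjusted threshold 7.6% of all tested genes rose and 4.57% fell. Among the 6579 genes whose mean lay within the range of the mitotic genes, from 7.55 to 87.1 FPKM, 10.8% rose. The 11 that rose did so by 1.17- to 1.37-fold. The median log2 change of the 38 was 0.19, against 0.051 over all tested genes and 0.082 within their range of levels, and 34 of the 38 changes were positive (89.5%), against 59.5% of all tested genes. Every cKO library lay above every control library for 21 genes (55.3%), against 22.8% of all tested genes and 30.9% in the same range of levels. The reverse held for 1 gene, Spc25, against 12.3% of all tested genes. Under median-of-ratios scaling, which moved the median of all genes to -0.0043, 5 genes rose and 30 changes were positive. The same scaling turned the split of all calls from 1070 higher and 643 lower to 652 and 782.

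**Figure D1:**
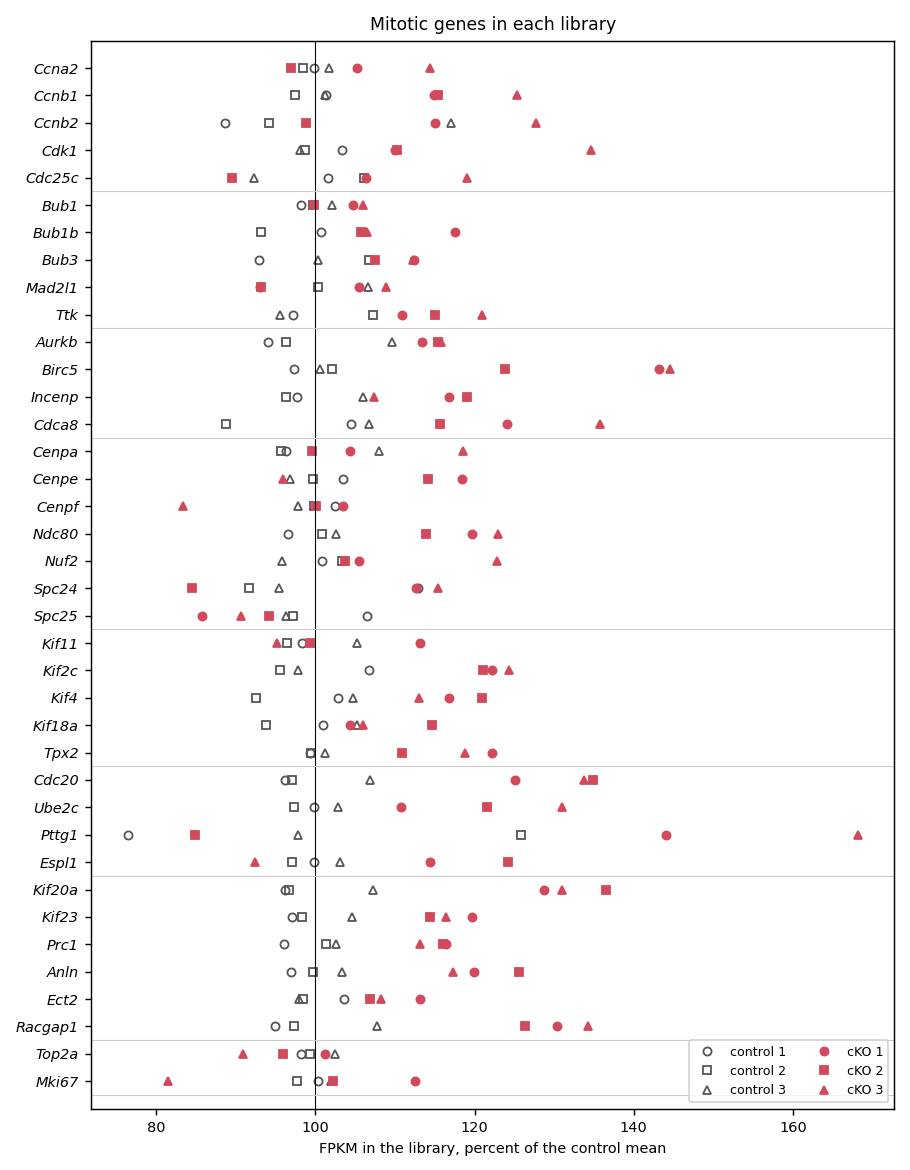
Level of each of the 38 genes in each library, as a percent of its control mean, with open grey symbols for the 3 control libraries, filled red symbols for the 3 cKO libraries, and grey lines between roles. The cKO libraries stand apart to the right in 21 genes, among them all 6 of central spindle and cytokinesis, while Mki67 and Cenpf have cKO 3 as their lowest library.

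Genes of the central spindle and of cytokinesis were the role with the most calls, a ranking that was not tested. Of 6, 4 rose, 0 fell and 2 did not pass, and all 6 had separate groups. Among tested genes in the range of levels of the 38, 10.8% rose and 30.9% had every cKO library above every control library. Kif20a (chromosome 18, 34624613 to 34633277), a kinesin that carries the passenger complex to the central spindle, was at 37.1, 37.3 and 41.4 FPKM in the control libraries and stood at 49.7, 52.7 and 50.6 FPKM in the cKO libraries. Its log2 change was 0.40 (SE 0.066, limma adjusted p = 0.00911). Racgap1 and Kif23 encode the 2 subunits of centralspindlin, which bundles midzone microtubules and positions the cleavage furrow. Racgap1 (chromosome 15, 99620496 to 99651656) was at 38.2, 39.2 and 43.4 FPKM in the control libraries and stood at 52.4, 50.8 and 54.0 FPKM in cKO, a log2 change of 0.38 (SE 0.067, limma adjusted p = 0.0116). Kif23 (chromosome 9, 61915905 to 61946774) was at 31.8, 32.2 and 34.3 FPKM in the control libraries and stood at 39.2, 37.5 and 38.2 FPKM in cKO, a log2 change of 0.22 (SE 0.059, limma adjusted p = 0.0474). Both subunits were thus higher in each cKO library than in any control library.

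Anln (chromosome 9, 22332012 to 22389188) encodes anillin, the scaffold of the contractile ring. It was at 58.3, 60.0 and 62.1 FPKM in the control libraries and stood at 72.1, 75.5 and 70.6 FPKM in the cKO libraries, a log2 change of 0.27 (SE 0.058, limma adjusted p = 0.0225). Prc1, which crosslinks antiparallel microtubules, was at 60.0, 63.3 and 64.1 FPKM and at 72.7, 72.5 and 70.7 FPKM. Its groups were separate, but its log2 change of 0.20 did not pass (limma adjusted p = 0.0511). Ect2, the exchange factor that activates RhoA at the furrow, was at 27.3 ± 0.859 and 29.8 ± 0.892 FPKM (SD, n = 3), a log2 change of 0.13 (limma adjusted p = 0.198).

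In the chromosomal passenger complex, the Aurora B kinase module that corrects faulty attachments, Birc5 rose, and the other 3 genes did not pass although all 4 had separate groups. Such upward separation was seen in 30.9% of tested genes in the range of levels of the 38. Birc5 (chromosome 11, 117849251 to 117855743) encodes survivin and had the largest log2 change of the 38 genes. It was at 60.3, 63.3 and 62.3 FPKM in the control libraries and stood at 88.7, 76.8 and 89.6 FPKM in the cKO libraries, a log2 change of 0.45 (SE 0.073, limma adjusted p = 0.00871). Cdca8, the subunit borealin, was at 34.8, 29.6 and 35.6 FPKM in the control libraries and stood at 41.3, 38.5 and 45.2 FPKM in cKO. Its log2 change of 0.32 lay just outside the threshold (limma adjusted p = 0.0554). The kinase gene Aurkb and the scaffold gene Incenp were at 23.1 ± 1.95 and 26.7 ± 1.39 FPKM in the control libraries and stood at 26.6 ± 0.301 and 30.5 ± 1.66 FPKM in cKO (SD, n = 3). Their log2 changes were 0.20 and 0.19 (limma adjusted p = 0.113 and 0.112).

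Of 4 genes of the anaphase-promoting complex (APC/C) and chromatid separation, 2 rose and 2 did not pass. Cdc20 (chromosome 4, 118432901 to 118437352), the activator of the complex and target of the checkpoint, was at 62.3, 62.9 and 69.2 FPKM in the control libraries and stood at 81.0, 87.4 and 86.6 FPKM in the cKO libraries. Its log2 change was 0.39 (SE 0.066, limma adjusted p = 0.00986). Ube2c (chromosome 2, 164769898 to 164778822), the ubiquitin-conjugating enzyme that works with the complex, was at 68.5, 66.7 and 70.6 FPKM and at 76.0, 83.4 and 89.9 FPKM, a log2 change of 0.27 (SE 0.072, limma adjusted p = 0.0466). Both genes were among the most abundant of the 38 in FPKM and were higher in each cKO library than in any control. Pttg1, the gene of securin, the inhibitor of separase, had the largest coefficient of variation of the 38 in both groups, 24.8 and 32.4%, and was at 15.8, 25.9 and 20.2 FPKM in the control libraries and stood at 29.7, 17.5 and 34.7 FPKM in cKO. Its groups overlapped (log2 change 0.37, SE 0.25, limma adjusted p = 0.379). Espl1, the gene of separase itself, was at 8.39 ± 0.255 and 9.25 ± 1.36 FPKM (SD, n = 3; a log2 change of 0.12 with limma adjusted p = 0.491).

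Among 5 genes that drive entry into mitosis, 1 rose. Ccnb1 (chromosome 13, 100778650 to 100786570), cyclin B1, was at 61.8, 59.4 and 61.7 FPKM in the control libraries and stood at 70.1, 70.3 and 76.4 FPKM in the cKO libraries, a log2 change of 0.24 (SE 0.060, limma adjusted p = 0.0366). Its partner Cdk1, the kinase of mitotic entry, was at 33.8, 32.3 and 32.1 FPKM and at 36.0, 36.1 and 44.1 FPKM. The Cdk1 groups were separate with cKO 3 standing above the rest, and the log2 change of 0.23 did not pass (limma adjusted p = 0.120). Ccnb2, cyclin B2, was at 39.5 ± 5.95 and 44.9 ± 5.72 FPKM, Ccna2, cyclin A2 of S and G2 phase, at 58.0 ± 0.924 and 61.2 ± 5.07 FPKM, and Cdc25c, the phosphatase that activates Cdk1, at 10.2 ± 0.717 and 10.7 ± 1.51 FPKM (SD, n = 3). These 3 had overlapping groups and log2 changes of 0.19, 0.073 and 0.061 (limma adjusted p = 0.358, 0.539 and 0.761).

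Of the 5 spindle motors and microtubule proteins 2 rose. Kif2c (chromosome 4, 117159639 to 117182639), the microtubule-depolymerising kinesin MCAK, was at 22.3, 20.0 and 20.5 FPKM in the control libraries and stood at 25.6, 25.3 and 26.0 FPKM in the cKO libraries, a log2 change of 0.29 (SE 0.065, limma adjusted p = 0.0272). Tpx2 (chromosome 2, 152847964 to 152895321), which nucleates spindle microtubules and activates Aurora A, was at 44.3, 44.3 and 45.1 FPKM and at 54.5, 49.4 and 53.0 FPKM, a log2 change of 0.23 (SE 0.060, limma adjusted p = 0.0446). Kif4, a chromokinesin on the X chromosome, was at 13.0, 11.7 and 13.2 FPKM and at 14.8, 15.3 and 14.3 FPKM, with separate groups and a log2 change of 0.22 that did not pass (limma adjusted p = 0.0909). Kif18a, which dampens chromosome oscillation, and Kif11, the plus-end motor Eg5 that separates the poles, had log2 changes of 0.11 and 0.033 (limma adjusted p = 0.418 and 0.825). Kif18a was the least abundant of the 38 genes, at 7.24 ± 0.418 and 7.85 ± 0.402 FPKM, and Kif11 was at 22.2 ± 1.03 and 22.7 ± 2.09 FPKM (SD, n = 3).

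Of 7 centromere and kinetochore genes 1 rose and 6 did not pass, with a median log2 change of 0.10. The NDC80 complex, the main microtubule coupler of the kinetochore, has 4 subunits. Ndc80 (chromosome 17, 71496100 to 71526857) was at 18.9, 19.7 and 20.1 FPKM in the control libraries and stood at 23.4, 22.3 and 24.1 FPKM in the cKO libraries, a log2 change of 0.24 (SE 0.063, limma adjusted p = 0.0429). Its partner Nuf2 was at 31.1, 31.9 and 29.5 FPKM and at 32.5, 32.0 and 37.8 FPKM, a log2 change of 0.14 (limma adjusted p = 0.277). Spc25, of the end that binds the inner kinetochore, was at 30.1, 27.5 and 27.2 FPKM and at 24.2, 26.6 and 25.6 FPKM, with every cKO library below every control library and a log2 change of -0.15 that did not pass (limma adjusted p = 0.203). The fourth subunit, Spc24, was at 13.7 ± 1.55 and 14.3 ± 2.35 FPKM (SD, n = 3; limma adjusted p = 0.840). The 4 transcripts were thus present at unequal levels and had changes of both signs.

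Cenpa, the centromeric histone H3 variant, was at 53.8 ± 3.73 and 57.8 ± 5.33 FPKM (SD, n = 3; a log2 change of 0.10 with limma adjusted p = 0.464). Cenpe, a kinetochore kinesin, was at 16.6, 16.0 and 15.5 FPKM in the control libraries and stood at 19.0, 18.3 and 15.4 FPKM in cKO (a log2 change of 0.12 with limma adjusted p = 0.406). Cenpf, a large protein of the outer kinetochore, was at 10.3, 10.03 and 9.82 FPKM and at 10.4, 10.05 and 8.37 FPKM (a log2 change of -0.067 with limma adjusted p = 0.677). In both of the latter genes cKO 3 was the lowest of the 6 libraries.

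By limma 0 of the 5 spindle checkpoint genes passed, 1 (Ttk) had an unadjusted p under 0.05, and the median of their log2 changes was 0.13. Ttk, the kinase Mps1 that starts the signal, was at 12.4, 13.7 and 12.2 FPKM in the control libraries and stood at 14.2, 14.7 and 15.4 FPKM in the cKO libraries, with separate groups (a log2 change of 0.20 with limma adjusted p = 0.114). Bub3, which docks the checkpoint at kinetochores, was at 40.7, 46.7 and 43.9 FPKM and at 49.2, 47.1 and 49.1 FPKM, also separate (a log2 change of 0.15 with limma adjusted p = 0.187). Bub1b, the gene of BubR1, Bub1, its kinase relative, and Mad2l1, the gene of the Cdc20 inhibitor Mad2, had log2 changes of 0.13, 0.048 and 0.034 with overlapping groups (limma adjusted p = 0.272, 0.651 and 0.823). Their levels were 25.7 ± 1.66, 17.9 ± 0.349 and 33.9 ± 2.29 FPKM in control against 28.2 ± 1.70, 18.5 ± 0.581 and 34.7 ± 2.79 FPKM in cKO (SD, n = 3).

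Top2a and Mki67, both widely used to mark proliferating cells, did not pass. Top2a, which untangles sister chromatids and was the most abundant of the 38, was at 87.3, 88.2 and 91.0 FPKM in the control libraries and stood at 89.9, 85.2 and 80.7 FPKM in the cKO libraries. Mki67, the gene of the Ki-67 antigen that coats mitotic chromosomes, was at 38.7, 37.7 and 39.4 FPKM and at 43.4, 39.4 and 31.4 FPKM. Their log2 changes were -0.060 and -0.031 with SE 0.061 and 0.11 (limma adjusted p = 0.565 and 0.883). Both had overlapping groups and cKO 3 as the lowest library. Without cKO 3 the log2 change of Mki67 was 0.10. That of Top2a stayed negative whichever library was left out, between -0.099 and -0.021.

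**Figure D2:**
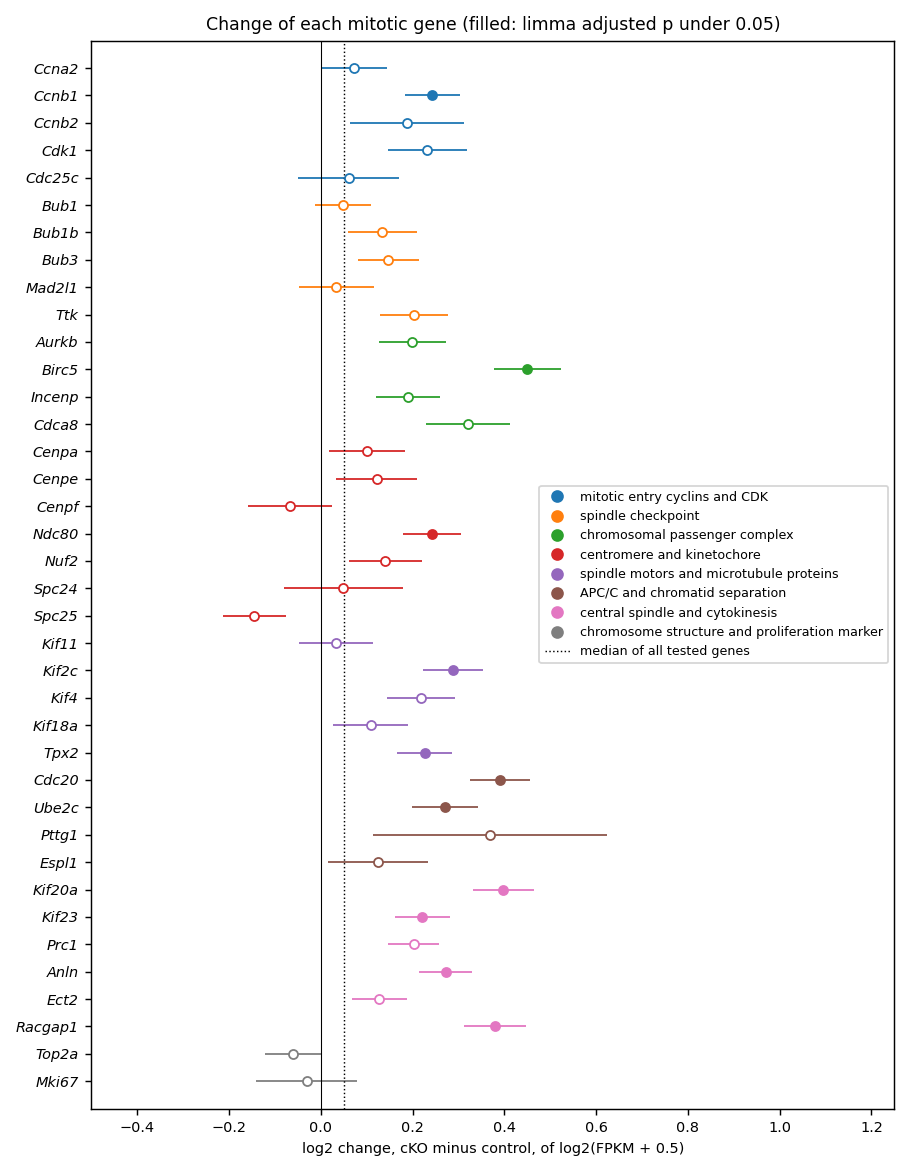
Log2 change of each gene, cKO minus control, with bars of 1 SE from the limma fit, coloured by role, and filled where the limma adjusted p is under 0.05. The 11 filled points lie between 0.22 and 0.45, to the right of the dotted line at the median of all tested genes, and Spc25, Cenpf, Top2a and Mki67 lie below 0.

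The replicates differed in a way that followed transcript length. In cKO 3, 19 of the 38 genes had their highest and 6 their lowest value of all 6 libraries. The difference of cKO 3 from the mean of cKO 1 and 2 had a Pearson r of -0.81 with log2 transcript length over the 38 genes, given as a description, since the genes share the libraries. Over all 14080 tested genes the same r was -0.23, and for the other 5 libraries it lay between -0.20 and 0.60 over the 38 genes. Pttg1 (mean length 906 bases) was higher in cKO 3 by 0.59 on the log2 scale, and Cenpa (1449 bases) by 0.22. The same difference was -0.39 for Mki67 (10060 bases), -0.35 for Espl1 (6204 bases) and -0.27 for Cenpf (10882 bases). Across the 38 genes the log2 change between genotypes had an r of -0.38 with log2 length, which was -0.011 without cKO 3. Over all 14080 tested genes, with all libraries, the r between that change and log2 length was -0.0088. Without cKO 3, 5 genes rose, namely Anln, Birc5, Cdc20, Kif20a and Racgap1, and after a trend on length was removed within each library the same 5 rose. Of all tested genes, 4.64% rose without cKO 3 and 5.91% with the length trend removed.

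**Figure D3:**
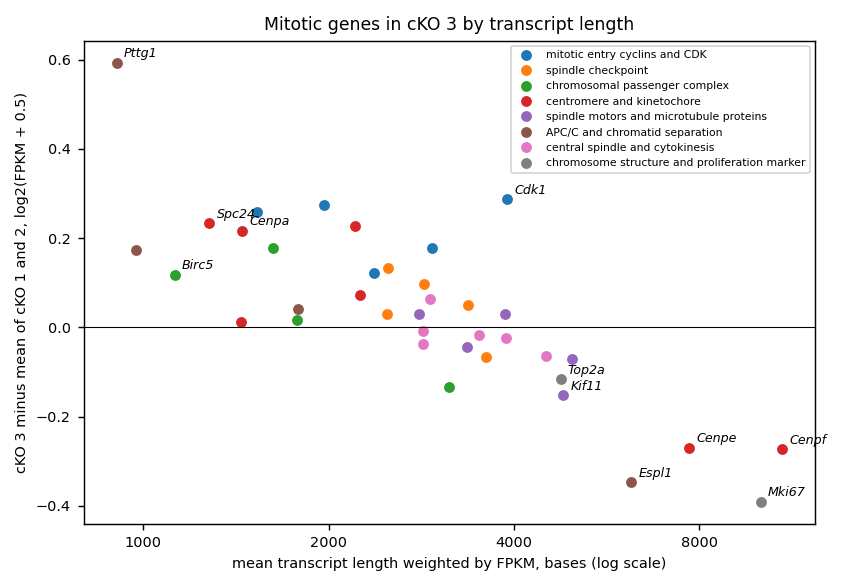
Difference of cKO 3 from the mean of cKO 1 and 2, in log2(FPKM + 0.5), against the mean transcript length of each of the 38 genes in bases on a log axis. Points fall from Pttg1 at 0.59 to Mki67 at -0.39, with Pearson r = -0.81.

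The deposited table lists 230 transcripts for the 38 genes, from 1 to 13 per gene. In 18 genes a single transcript held over 90% of the gene's FPKM. At q under 0.05, 11 of these transcripts were higher and 2 lower in the authors' deposited table, where 2.2% of all 85882 transcripts were higher and 3.81% passed in either direction. For the main transcripts of Anln, Cdc20, Birc5 and Kif2c the authors' deposited table gives folds of 1.21, 1.31, 1.41 and 1.23 with q = 3.69e-09, 3.73e-05, 9.32e-05 and 0.00483. It also gives q = 0.0196 to the main transcript of Kif4 and q = 0.0199 to that of Cdk1, with folds of 1.17 and 1.21 in the authors' deposited table, while neither gene passed limma as a sum. The authors' deposited table marks 6 member transcripts as significant, a mark that it gives only to changes of at least 2-fold, and each of those 6 held at most 30.9% of its gene. A low q there does not require presence in several libraries. Ccnb1 ENSMUST00000174038 was at 1.98 FPKM in control 3 and 0 elsewhere (authors' q = 1.55e-06). Ndc80 ENSMUST00000232863 was at 0.633 FPKM in cKO 3 and 0 elsewhere (authors' q = 1.08e-05).

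In some genes the split between transcripts was unstable while the sum was not. For Racgap1, ENSMUST00000023756 held 20.8% of the gene in cKO 2 and 62.9 to 80.9% in the other 5 libraries, and ENSMUST00000171702 held 74.7% in cKO 2, whereas the sum was within 50.8 to 54.0 FPKM in all 3 cKO libraries. For Prc1, ENSMUST00000173824 held 19.2 and 24.2% in control 1 and 2 but 69.9% in control 3 and 67.0 to 75.2% in cKO. Control 3 lay with the cKO libraries in that split. For Ect2, ENSMUST00000108298 ranged from 27.0 to 79.4% without separating the groups. By contrast, Anln was carried by ENSMUST00000040912, which held 96.9% of its FPKM. For Pttg1, ENSMUST00000121638 was at 4.54, 5.16 and 3.37 FPKM in the control libraries and stood at 13.6, 9.88 and 7.85 FPKM in cKO, with separate groups, a fold of 2.40 and q = 0.000664 in the authors' deposited table. With only the highest transcript of each gene, Birc5 and Cdc20 rose and the log2 change of Racgap1 was -0.17.

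**Figure D4:**
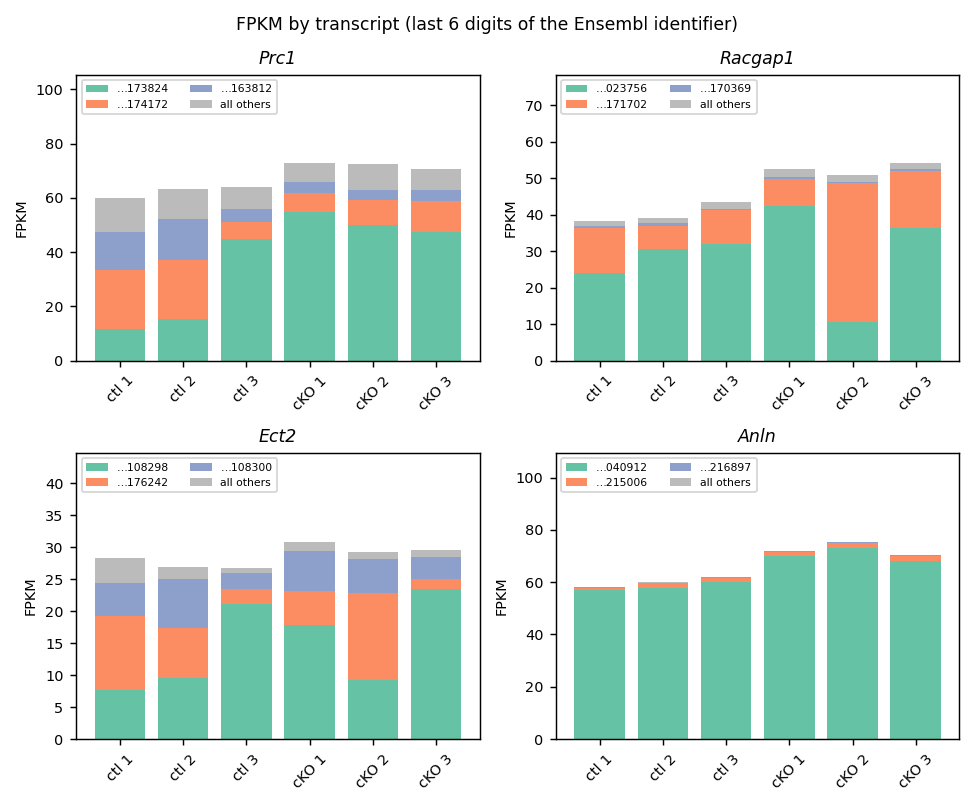
FPKM of the 3 most abundant transcripts and of all others, stacked, in each library for Prc1, Racgap1, Ect2 and Anln, with ctl for control. The bar heights of Racgap1 are alike among the 3 cKO libraries although its leading transcript holds 20.8% in cKO 2, and Anln consists almost wholly of 1 transcript.

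Other genes of the same machinery were counted in the same fit. Of 119 tested genes in 5 further lists, 14 rose (11.8%), 1 fell and 104 did not pass, with a median log2 change of 0.094. Among all tested genes 7.6% rose, with a median of 0.051. Within the range of levels of the 38 genes 10.8% rose, with a median of 0.082, so these lists as a whole stood near that share. Of 21 other mitotic kinases, phosphatases and G2/M transcription factors 4 rose and 17 did not pass. Aurka, the spindle pole kinase activated by Tpx2, was at 27.6, 26.7 and 28.6 FPKM in the control libraries and stood at 40.0, 39.9 and 43.1 FPKM in the cKO libraries, a log2 change of 0.56 (SE 0.062, limma adjusted p = 0.00176), above that of each of the 38 genes. Plk1, the polo-like kinase, rose by 0.33, Melk by 0.35 and Ccnf, cyclin F, by 0.33 in log2 units (by limma, adjusted p = 0.0136, 0.0291 and 0.0409), while the transcription factor Mybl2 had a change of 0.27 and the kinase Nek2 of 0.17 (limma adjusted p = 0.122 and 0.140).

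Of 34 other centromere and kinetochore genes 5 rose and 29 did not pass, with a median of 0.086. Zwint, a partner of the outer kinetochore protein Knl1, rose from 52.0 ± 1.03 to 72.3 ± 5.93 FPKM (SD, n = 3; a log2 change of 0.47 with limma adjusted p = 0.00670). Cenpt, Zwilch, Spdl1 and Cenps rose by 0.39, 0.26, 0.30 and 0.43 in log2 units (by limma, adjusted p = 0.0142 to 0.0476), and Cenpn had a change of 0.29 (limma adjusted p = 0.0752). Of 27 other spindle and cytokinesis genes 3 rose (11.1%, near that 10.8%) and 24 did not pass. The former were Dlgap5, which stabilises kinetochore fibres, Fam83d and the kinesin Kif18b, by 0.35, 0.33 and 0.28 (limma adjusted p = 0.0113, 0.0219 and 0.0483). Kif22, Kifc1 and Spag5 had changes of 0.26, 0.17 and 0.20 (limma adjusted p = 0.0660 to 0.108).

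Condensin and cohesin genes, which shape and hold chromatids, had a median of -0.038 over 20 genes. The condensin subunit Ncaph rose by 0.26 and Esco2, the acetyltransferase of sister chromatid cohesion, fell by 0.32 in log2 units (by limma, adjusted p = 0.0281 and 0.0278), while Smc4, Ncaph2, Sgo2a and Stag2 had changes of -0.22, 0.17, 0.16 and -0.14 (limma adjusted p = 0.0633 to 0.156). Of 17 other genes of the APC/C and its regulators 1 rose (5.88%, against 7.6% of all tested genes), the subunit Anapc2, by 0.30 (limma adjusted p = 0.0218). The inhibitor Fbxo5, the subunits Anapc7 and Cdc23, the enzyme Ube2s and the activator Fzr1 had changes of 0.28, 0.20, 0.15, 0.17 and 0.12 (limma adjusted p = 0.0787 to 0.294).

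Genes of earlier cell cycle phases are given for comparison, without a test of the difference. Of 49 genes of DNA replication and nucleotide supply 7 rose (14.3%), 42 did not pass and the median log2 change was 0.17. Rrm2, the regulated subunit of ribonucleotide reductase, was at 142, 144 and 159 FPKM in the control libraries and stood at 222, 282 and 275 FPKM in the cKO libraries (log2 change 0.80, SE 0.099, limma adjusted p = 0.00276). Tk1, thymidine kinase, Prim2, Rrm1, Rpa1 and Fen1 rose by 0.46, 0.34, 0.27, 0.30 and 0.30 (limma adjusted p = 0.00294 to 0.0266). Of 26 genes of G1 control 3 rose (11.5%), a share near the 10.8%, and 1 fell, with a median of 0.081. Ccne1, cyclin E1, and E2f6 rose by 0.44 and 0.29 (limma adjusted p = 0.0259 and 0.0382). Of the CDK inhibitor genes in that list, Cdkn1a, the gene of p21, rose by 0.61 in log2 units and Cdkn1c, that of p57, fell by 0.70 (limma adjusted p = 0.0189 and 0.00154). E2f4 and E2f7 had changes of 0.25 and 0.29 (limma adjusted p = 0.0543 and 0.0614).

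The mean of the 38 centred log2 values took the values -0.10, -0.10 and -0.052 for the controls, against 0.11, 0.039 and 0.11 for cKO 1 to 3, so cKO 2 was the lowest of the cKO libraries. The 8 genes outside the 38 whose values over the 6 libraries had the highest Pearson r with that mean, of 8010 genes at a mean of 5 FPKM or more, were Npm3, Grb2, F2r, Cct6a, Pxylp1, Nup43, Psmc1 and Thbs2, with r of 0.995 to 0.998. With 6 libraries in 2 groups, such values are a description. Within the 38, Spc25 had an r of -0.87 with the mean, and Top2a, Cenpf and Mki67 of -0.45, -0.45 and -0.16. Each gene is itself part of that mean, which was higher in every cKO library than in any control library. These r therefore largely repeat the sign of the log2 changes given above. Replicate spread was small, with a median coefficient of variation of 4.92% in control and 5.41% in cKO, against 5.54 and 6.96% for genes in the same range of levels.

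The calls depended on the settings. Birc5 rose under all 18 alternative settings run (limma adjusted p 0.00300 to 0.0424), Cdc20 under 17, Kif20a under 16, Racgap1 under 15 and Anln under 10. The other 6 genes rose under 3 to 7 of them. Without control 2, the count fell to 2, Birc5 and Kif20a, and without control 1 to 4. Without cKO 1 it was 5 and without control 3 also 5. Without cKO 2 it was 8. In the order given, 1.60, 2.19, 4.61, 5.09 and 5.58% of all tested genes rose in these fits, against 7.6% as reported. Over all tested genes the number higher in cKO also fell, from 1070 as reported to 225 without control 2 and 308 without control 1. Under no setting did any of the 38 genes fall past the threshold.

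**Figure D5:**
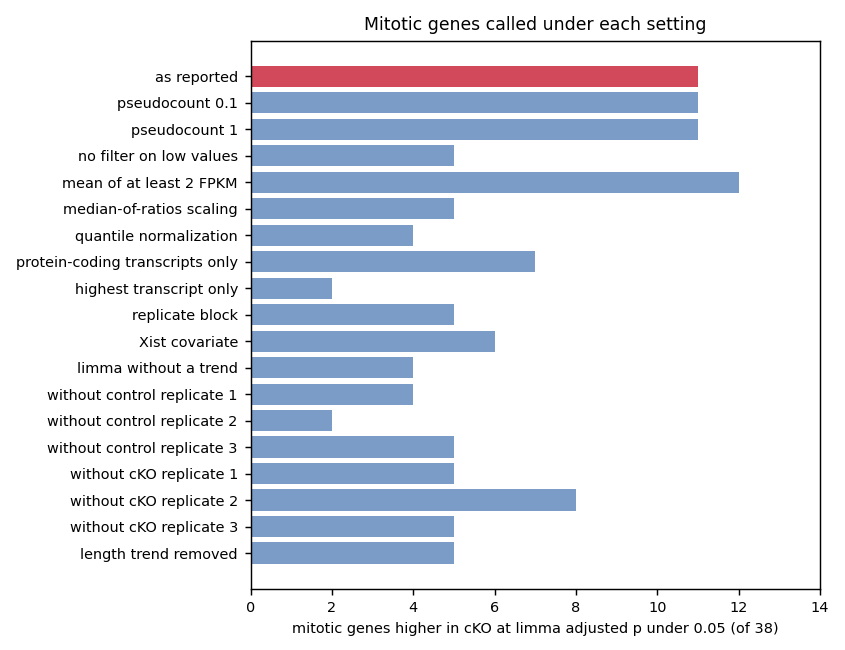
Number of the 38 genes higher in cKO at limma adjusted p under 0.05, for the fit as reported (red) and each alternative (blue). The count is 11 as reported, 12 with a filter of at least 2 FPKM, and 2 without control 2 or with the highest transcript only.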

How the data were processed

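RNA was measured in 6 libraries, 3 per genotype, grouped and numbered from the sample titles. Trizol-extracted RNA was, per the labels' protocols, fragmented with magnesium and reverse transcribed with dUTP incorporation. Build mm10 comes from the submitters' processing notes, and no source used here names the aligner, quantification program or test. The deposited table gives FPKM per transcript and library for 85882 transcripts, together with the authors' fold (a ratio of mean FPKM), its log2, and a p-value and q-value from a test that no header names. The deposited fold was recomputed within 1% for 71165 of 71165 transcripts with both means above 0. Depth is unknown: at best 15.9 to 18.2% of low values lay within 0.05 of a whole multiple of a step, where an even spread gives 10%, so whole reads were not recovered.

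FPKM were summed per gene symbol. Those averaging at least 0.5 FPKM over the libraries entered a 2-sided limma test (limma 3.58.1 in R 4.3.3, prior variance following mean level) on log2(FPKM + 0.5), which understates changes of low genes, with Benjamini-Hochberg adjustment over 14080 genes. Alternatives changed the pseudocount, filter, scaling, transcripts summed, covariates, trend and libraries. Gene coordinates are 1-based from GENCODE M21 on mm10. The genes, the other lists and the promoter motifs were chosen with earlier results of these data known. All 38 genes are named, and from each other list up to 6 genes with the smallest p, plus Nf2. Tables and plots used Python 3.11.15, pandas 2.3.3, NumPy 2.4.6 and Matplotlib 3.10.9.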

Additional observations from a re-analysis of the deposited data

How the results depend on the processing

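No mitotic gene passed as lower under any of the 18 alternatives. The 11 genes that rose became 5 without a filter on low values, with median-of-ratios scaling and with the length trend removed (chosen after seeing the data), 4 with quantile normalization and without a mean-variance trend, 7 with protein-coding transcripts only, 2 with the highest transcript only and 6 with the Xist covariate. In that order of settings, 1.16, 4.63, 5.91, 4.73, 4.06, 7.16, 1.94 and 6.61% of all tested genes rose. Leaving out 1 library gave 2 to 8 genes, a median log2 change of 0.16 to 0.20 and 541 to 1332 calls over all genes. Those calls, 1713 as reported, were 662 without a filter, 540 with the highest transcript only and 1134 without a trend. The median log2 change of the 38 genes moved from 0.19 to 0.13 with median-of-ratios scaling, 0.11 with quantile normalization and 0.13 with the length trend removed. The labels do not say whether libraries of the same number were prepared together. Deviations of same-numbered libraries had correlations of -0.016, -0.056 and -0.046, and no library had its highest correlation with its own number. With deviations taken within groups of 3 libraries, such values cannot exclude a pairing. With a replicate block 5 genes rose, 4 of them among the 11, and 1097 genes passed in all, with 4.53% of all tested genes higher. The cause of these moves was not tested, except that leaving out a library leaves fewer samples.

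Some log2 changes turned sign, among them those of Racgap1, which rose as reported, and Pttg1, at 0.38 and 0.37 as reported. With median-of-ratios scaling, Bub1, Mad2l1, Spc24 and Kif11 had -0.012, -0.027, -0.010 and -0.027. With quantile normalization, Ccna2, Bub1, Mad2l1, Spc24 and Kif11 had -0.0058, -0.023, -0.046, -0.017 and -0.049. With protein-coding transcripts only, Mad2l1 had -0.013. With the highest transcript only, Mad2l1, Pttg1, Espl1 and Racgap1 had -0.030, -0.19, -0.23 and -0.17. After removal of the length trend, Cdc25c, Bub1, Mad2l1, Spc24 and Mki67 had -0.022, -0.0050, -0.037, -0.039 and 0.0042. With 1 library left out, Mad2l1 ranged from -0.016 to 0.10, Spc24 ranged from -0.029 to 0.19, Kif11 ranged from -0.038 to 0.084, Cdc25c ranged from -0.031 to 0.17, Cenpf ranged from -0.12 to 0.024, Mki67 ranged from -0.13 to 0.0995. No interval from read counts could be given, since depth is unknown.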
